A study of Homo sapiens with 15 samples.

Results

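The 49 genes described here encode Wnt ligands, their receptors and the proteins that modulate them. They were chosen by name from the 20033 protein-coding genes of the GENCODE v44 annotation: 19 Wnt ligands, 10 Frizzled receptors, the LGR4, LGR5 and LGR6 receptors for R-spondins, the co-receptors LRP5 and LRP6, 7 secreted antagonists (DKK1, DKK2, DKK3, SFRP1, SFRP2, SFRP4 and SFRP5), the feedback inhibitors AXIN2, RNF43 and ZNRF3, the receptors ROR1 and ROR2, and the R-spondins RSPO1, RSPO2 and RSPO3. Chromatin accessibility was measured by ATAC-seq, in which a transposase inserts sequencing adapters into open DNA, in RPTEC, a line of human renal proximal tubule epithelial cells immortalized with hTERT and kept under G418. The question of the series is what loss of SETD2, a histone H3 lysine 36 methyltransferase, does to these cells, and whether putting SETD2 back undoes it.

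There were 5 groups of 3 libraries. WT was the parental line. KO1 and KO2 were clones grown from single cells after CRISPR/Cas9 cutting in exon 3 of SETD2, each with frameshift mutations. Rescue1 and Rescue2 were colonies of knockout cells transduced with a lentivirus carrying full-length FLAG-tagged SETD2 and selected with blasticidin. Neither the labels nor the methods say which KO clone they came from. The names of the deposited lists give both rescue clones the prefix of KO2, and KO2 was taken as their reference on that ground only. Each altered genotype is thus 1 clone per group, and nothing in the labels says that the 3 libraries of a group came from separate cultures, so the p-values measure the spread between libraries only.

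Each library is a list of called peaks. For each gene, the bases under peaks were summed over the gene body and 10 kb on each side, and a promoter was scored as holding a peak or not within 1 kb of the annotated start. The lists carry no read counts, so the depth behind them is unknown, and a place without a peak is one that fell below the calling threshold, not one shown to be closed. Bases under peaks are no measure of expression, and in such bulk libraries fewer cells with an open site and less signal per cell cannot be told apart. The lists held 197527 to 266011 peaks covering 49.4 to 65.2 Mb, the longest being Rescue2 replicate 1 and KO2 replicate 3, and the regions of 2 libraries of a group overlapped with a Jaccard index of 0.766 to 0.813. The peak lists cannot show the frameshifts themselves. At the SETD2 gene itself peaks covered 4085 ± 342 bases in the WT libraries (mean ± SD, n = 3), 4599 ± 396 in KO1, 4796 ± 581 in KO2, 4771 ± 151 in Rescue1 and 5538 ± 830 in Rescue2.

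The cell type was checked on promoters. Of 15 markers of renal epithelium, 8 had a promoter peak in all 15 libraries, PAX8, CDH16 and EPCAM among them, and 2, HNF4A and CUBN, had none in any library. The promoters of CDH1 and KRT7 held a peak in 3 of 3 WT libraries and in none of KO1, and that of DCN, a fibroblast marker, in none of WT and in 3 of 3 of both KO clones. COL1A1 and PDGFRB, the other fibroblast markers, had a promoter peak in all 15 libraries, as did CDH5 of 3 endothelial markers and SYP of 2 neuronal ones, while the promoters of PTPRC, CD3E and SPI1, the leukocyte markers, held a peak in no library. The part of these marker changes in the values below was not tested.

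Wnt proteins are secreted, lipid-modified ligands that bind Frizzled receptors. With LRP5 or LRP6 as co-receptor they stabilise beta-catenin, which then works with TCF/LEF factors in the nucleus, and through ROR receptors they act without beta-catenin. DKK and SFRP proteins restrain the signal outside the cell, RNF43 and ZNRF3 remove Frizzled from the membrane, and R-spondins bound to LGR receptors block that removal, so they raise the response to Wnt. The pathway shapes the nephron in development and is turned on again in injured and fibrotic kidney.

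Consensus regions, merged from peaks that at least 2 libraries share, show which elements in these loci appeared or vanished. The first pair of sequences below belongs to 2 of the 3 regions gained or lost in the KO clones that undid themselves in rescue, the other pair to gained regions with high fold enrichment, and they are shown because the changes described further on lie in such introns and flanks. They are from hg38, plus strand, 5′ to 3′. Capitals mark matches, on either strand, to CTTTGAT, the letters bound by TCF/LEF factors, to ATGCAAAT, the POU octamer, or to TGANTCA, bound by AP-1. The first region lies in an intron of ROR2, 132 kb into the gene, at chr9:91817891-91818135, and the second in an intron of LRP6 at chr12:12138776-12138952, printed up to the untranslated part of an exon of the overlapping gene BCL2L14. The others are the middle of longer regions, in an intron of DKK2 at chr4:107058854-107059153 and in an intron of WNT5B at chr12:1635696-1635995.
ROR2, gained, 132 kb: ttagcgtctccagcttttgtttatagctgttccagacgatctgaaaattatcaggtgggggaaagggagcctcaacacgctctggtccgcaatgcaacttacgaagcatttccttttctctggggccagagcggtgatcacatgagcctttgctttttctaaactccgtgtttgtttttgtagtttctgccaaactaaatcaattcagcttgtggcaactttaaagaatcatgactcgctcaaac
LRP6, lost, 128 kb: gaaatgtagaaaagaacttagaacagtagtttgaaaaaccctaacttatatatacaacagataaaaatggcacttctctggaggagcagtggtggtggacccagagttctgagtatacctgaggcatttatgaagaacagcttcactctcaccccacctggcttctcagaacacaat
DKK2, gained, 225 kb: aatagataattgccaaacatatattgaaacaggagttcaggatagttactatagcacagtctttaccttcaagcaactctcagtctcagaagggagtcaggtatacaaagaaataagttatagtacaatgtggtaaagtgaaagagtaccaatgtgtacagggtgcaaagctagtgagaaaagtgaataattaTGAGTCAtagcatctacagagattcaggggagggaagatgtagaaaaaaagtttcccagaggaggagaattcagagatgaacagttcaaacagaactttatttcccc
WNT5B, gained, 106 kb: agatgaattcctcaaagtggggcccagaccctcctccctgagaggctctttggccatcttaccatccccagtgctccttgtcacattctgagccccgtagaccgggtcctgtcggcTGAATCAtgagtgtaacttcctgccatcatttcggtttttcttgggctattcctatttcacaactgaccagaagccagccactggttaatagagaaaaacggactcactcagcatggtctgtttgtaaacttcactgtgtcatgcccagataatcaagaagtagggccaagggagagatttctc

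Not every reversed region is shown and that of LRP6 is printed only in part, so the capitals do not set reversed against kept regions. The AP-1 letters also stood in the LRP6 region beyond the printed part, and in the other reversed ROR2 region, 147 kb into the gene. Over all 56 gained or lost regions in the windows of these genes, 17 (30.4%) held the AP-1 letters in the 300 bases about their middle, beside 31.7% of all 295008 consensus regions. The POU octamer stood in 2 (3.57%, beside 2.03%) and the TCF/LEF letters in 0 of 56 (beside 3.91%). A match is a description of the letters only.

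All 49 genes passed the filter on low values and were tested with limma among 18456 genes, on log2(bases + 200), with Benjamini-Hochberg adjustment over all of them; a gene is called where the adjusted p is under 0.05. In KO1, 9 of the 49 carried more bases under peaks than in WT (18.4%, beside 12.4% of all genes tested) and 8 fewer (16.3%, beside 11.8%), 34.7% in all beside 24.3%. In KO2, 11 carried more (22.4%, beside 13.5%) and 8 fewer (16.3%, beside 9.34%), 38.8% in all beside 22.8%. Both clones shared 15 calls in the same direction, 30.6% beside 16.5% of all genes. RSPO2, LGR5, DKK2, WNT2, RSPO3, ROR2, SFRP1, WNT3 and WNT5B were the 9 higher ones (18.4%, beside 9.83%) and WNT7A, WNT1, RNF43, FZD8, WNT10B and FZD1 the 6 lower ones (12.2%, beside 6.64%). The 2 comparisons share the WT libraries, and no test of the list as a whole was made. The median log2 difference over the 49 was -0.0348 in KO1 and -0.028 in KO2, beside -0.0144 and -0.00733 over all genes.

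Scaling each library to the same total of bases under peaks moved the median of all genes to -0.0994 in KO1 and -0.127 in KO2, and the balance of calls with it. The share of higher calls among all genes went from 51.2% to 28.6% in KO1, from 59.0% to 25.1% in KO2 and from 59.7% to 27.6% in both clones, and 25 of the 49 genes were then called in both clones, 8 of them higher, where 35.4% of all genes were called in both. Of the 15 genes, WNT3 alone lost its call under that scaling. The other 14 kept their direction and call.

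**Figure D1:**
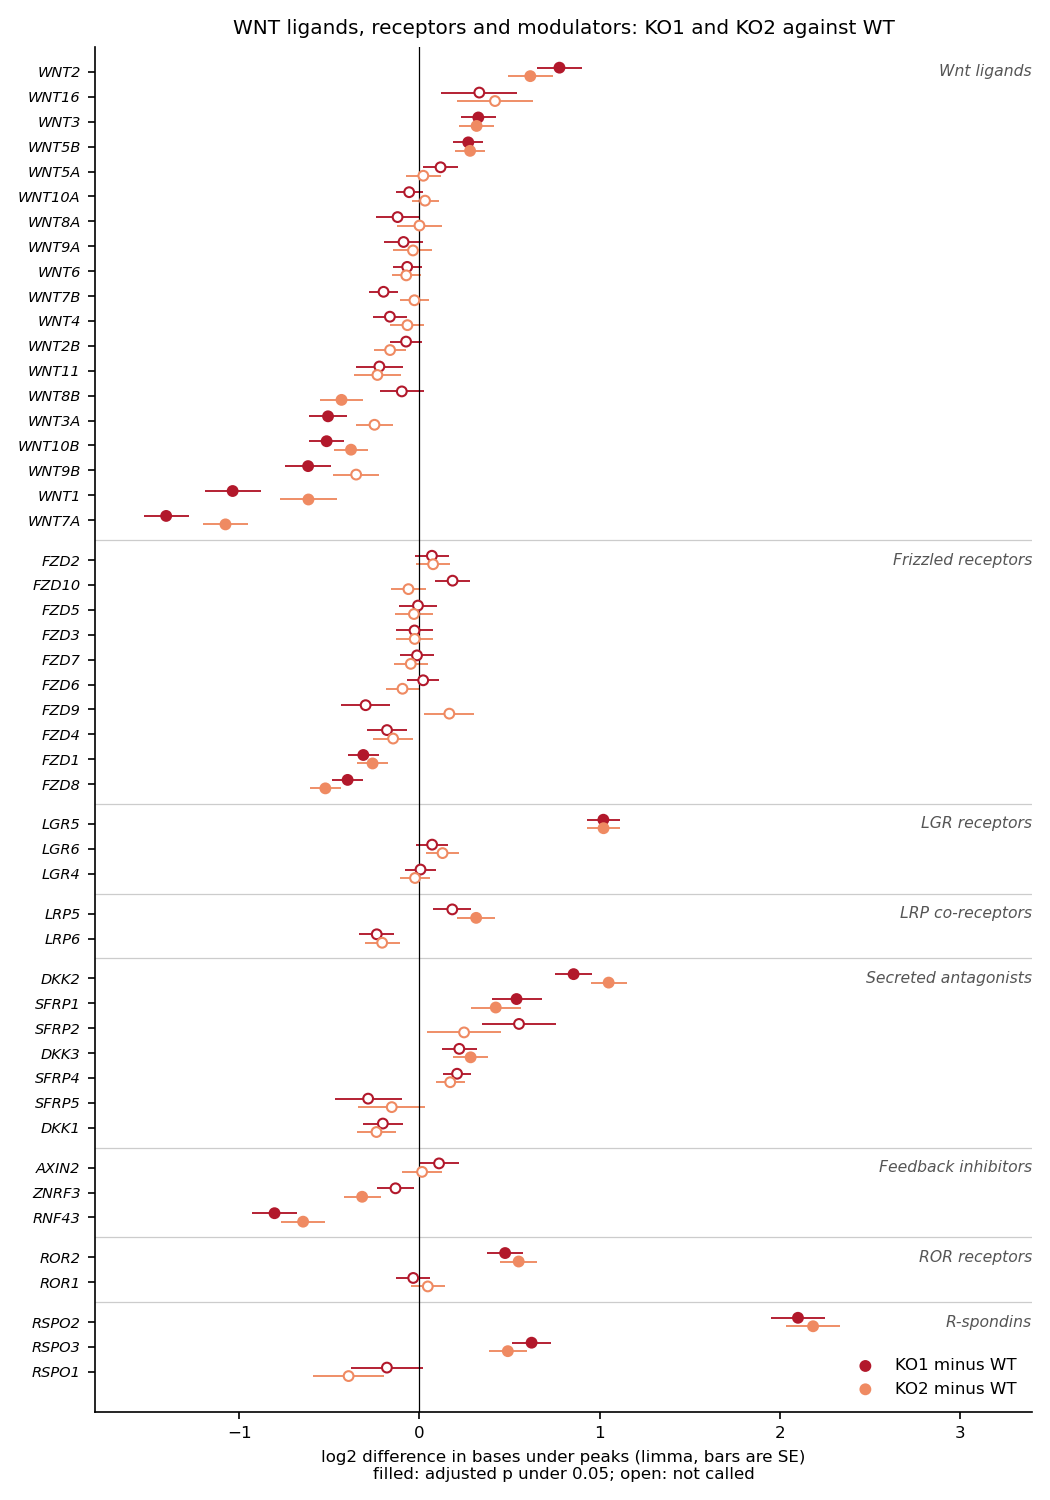
log2 difference in bases under peaks (gene body plus 10 kb each side) of KO1 and KO2 against WT for all 49 genes, grouped by role; points are limma estimates, bars their SE, filled points have an adjusted p under 0.05. RSPO2 stands furthest to the right at 2.10 and 2.18 and WNT7A furthest to the left at -1.41 and -1.08.

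Of the Wnt ligands, 3 of 19 carried more and 3 fewer bases in both KO clones. WNT7A (chr3:13816258-13880071, minus strand), a ligand of the epithelium and nervous system, held 7207, 6213 and 6404 bases under peaks in the WT libraries, 1984, 2404 and 2763 in KO1 and 2922, 2553 and 3688 in KO2. No KO library reached the lowest WT library. In limma the difference from WT was -1.41 ± 0.13 (SE, log2, adjusted p = 1.17e-08) for KO1 and -1.08 ± 0.13 (adjusted p = 9.23e-07) for KO2. WNT7A had 24 regions in its window, and 5 of them, all in its introns, held a peak in 3 of 3 WT libraries and in no KO library.

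The WNT7A promoter kept a peak in every library, but the peaks there were shorter. Within 1 kb of the start they covered 1663, 1483 and 1562 bases in WT, 437, 496 and 403 in KO1, 565, 425 and 475 in KO2, 764, 882 and 925 in Rescue1 and 1082, 971 and 725 in Rescue2. WT, the KO clones and the rescue clones did not overlap one another in this measure, with both rescue clones in between, and it was not tested. For FZD9, treated below, the promoter peak was absent from KO1. The 250 bases before the RefSeq start of both genes are shown because the promoter peaks of these genes changed, and are given 5′ to 3′ on the gene's strand (RefSeq, GRCh38.p14, chr3:13880072-13880321, minus strand, and chr7:73433528-73433777, plus strand), with the same use of capitals.
WNT7A promoter: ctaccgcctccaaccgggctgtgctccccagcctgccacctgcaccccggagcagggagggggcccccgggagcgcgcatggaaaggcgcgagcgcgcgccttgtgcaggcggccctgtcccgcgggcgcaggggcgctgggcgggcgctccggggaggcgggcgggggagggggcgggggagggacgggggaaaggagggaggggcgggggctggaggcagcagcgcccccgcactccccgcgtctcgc
FZD9 promoter: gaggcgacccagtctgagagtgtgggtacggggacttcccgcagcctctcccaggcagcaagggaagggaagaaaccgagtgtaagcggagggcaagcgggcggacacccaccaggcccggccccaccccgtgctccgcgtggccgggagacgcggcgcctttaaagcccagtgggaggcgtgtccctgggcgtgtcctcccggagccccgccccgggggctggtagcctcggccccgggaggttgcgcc

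These stretches are 80.4% and 72.4% G or C with 29 and 23 CG dinucleotides, beside medians of 58% and 11 over 35116 RefSeq promoters, and neither holds any of the 3 motifs. Over all those promoters, 2.26% hold the TCF/LEF letters, 1.63% the POU octamer and 6.57% the AP-1 letters.

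WNT2, one of the ligands the study names, held 1848, 1415 and 1170 bases in WT, 2600, 2658 and 2649 in KO1 and 2075, 2111 and 2897 in KO2. Every KO library lay above every WT library, by 0.78 ± 0.13 (adjusted p = 6.27e-05) and 0.62 ± 0.13 (adjusted p = 0.000916) on the log2 scale in limma. An intronic region 14.0 kb from the start, at chr7:117309048-117309181, had a peak in all 6 KO libraries and all 6 rescue libraries and in no WT library. The WNT2 window overlaps CFTR, and 54.6% of its bases under peaks lay outside other gene bodies. WNT5A, a ligand of the branch without beta-catenin, held 2579, 2119 and 2366 bases in WT, 2454, 2682 and 2557 in KO1 and 2411, 2277 and 2473 in KO2. The groups overlapped, with differences of 0.12 ± 0.10 (adjusted p = 0.437) and 0.02 ± 0.10 (adjusted p = 0.911), and none of its 15 regions was gained or lost.

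WNT1 and WNT10B are neighbours on chromosome 12 and share part of their windows, so their values are not independent. WNT1 held 2023, 1386 and 1581 bases in WT, 571, 584 and 1002 in KO1 and 823, 1082 and 1129 in KO2, and differed by -1.04 ± 0.16 (adjusted p = 2.46e-05) and -0.62 ± 0.16 (adjusted p = 0.0057). WNT10B held 3658, 2887 and 3135 in WT, 2093, 1978 and 2523 in KO1 and 2308, 2409 and 2554 in KO2, and differed by -0.52 ± 0.10 (adjusted p = 0.000272) and -0.38 ± 0.10 (adjusted p = 0.00528). Neither gene's KO libraries overlapped its WT libraries, and both calls were lost when the 10 kb flanks were left out. WNT3 and WNT5B rose by 0.33 and 0.27 in KO1 and by 0.32 and 0.28 in KO2. These were the smallest of the higher calls. WNT3, whose window overlaps that of WNT9B, was not called with 50 kb flanks, where its KO1 difference turned to -0.00421, nor under the scaling to one total, with 150000 peaks per library, or without WT replicate 3, KO1 replicate 1, KO1 replicate 2 or KO2 replicate 3. The WNT5B call was lost with 150000 peaks per library, with stricter peaks, and without WT replicate 2, WT replicate 3, KO1 replicate 3 or KO2 replicate 1.

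Ligands called in 1 clone only were WNT3A and WNT9B in KO1 and WNT8B in KO2. WNT3A, the ligand commonly used to switch on beta-catenin, was lower in KO1 by -0.51 ± 0.11 (adjusted p = 0.000878), beside -0.25 ± 0.11 (adjusted p = 0.094) in KO2. WNT9B, which drives tubule formation in the developing kidney, was lower in KO1 by -0.62 ± 0.13 (adjusted p = 0.000905), beside -0.35 ± 0.13 (adjusted p = 0.0522) in KO2. For WNT8B the KO2 difference was -0.43 ± 0.12 (adjusted p = 0.0116) and the KO1 difference -0.10 ± 0.12 (adjusted p = 0.629). For none of the 3 did limma call KO2 different from KO1. In WNT3A, -514 of the -560 bases by which the KO mean differed from the WT mean lay in regions that all 15 libraries share, so there the peaks narrowed.

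No Frizzled receptor carried more bases in both KO clones, and 2 of 10 carried fewer. FZD8 held 2535, 2214 and 2329 bases in WT, 1762, 1798 and 1658 in KO1 and 1471, 1568 and 1707 in KO2, below every WT library in each case. The differences were -0.40 ± 0.09 (adjusted p = 0.00128) and -0.52 ± 0.09 (adjusted p = 8.49e-05), and the FZD8 call in both clones was lost with 150000 peaks per library. FZD8 lost 2 upstream regions, 8.74 kb and 9.40 kb from its start, which no KO library held. FZD1 fell by 0.31 in KO1 and by 0.26 in KO2, and that call was lost with no flank, with 50 kb flanks, with 150000 peaks per library, and without WT replicate 1 or any 1 of the KO2 replicates. For the other 8 receptors no difference was called in either clone.

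FZD9 showed the only promoter in the set that a KO clone lost. A peak lay over its start in 3 of 3 WT libraries, in 0 of 3 KO1 libraries and in 3 of 3 libraries of KO2, Rescue1 and Rescue2. Such a loss in KO1 was seen at 1.37% of all 20033 promoters. Over its whole window FZD9 held 538, 549 and 759 bases in WT, 532, 545 and 322 in KO1 and 738, 666 and 721 in KO2. These groups overlapped, and the differences from WT were -0.30 ± 0.14 (adjusted p = 0.126) and 0.17 ± 0.14 (adjusted p = 0.439). Over the same window the rescue clones held more than WT, by 0.66 ± 0.14 (adjusted p = 0.00159) in Rescue1 and 0.51 ± 0.14 (adjusted p = 0.00828) in Rescue2. These totals include a gained region of 476 bases 9.64 kb downstream of the start, at chr7:73443182-73443657 in the overlapping gene BAZ1B. It held a peak in no WT library and in every KO and rescue library. Its part in the FZD9 values was not tested.

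The receptors for R-spondins differed among themselves. LGR5 (chr12:71439798-71586310, plus strand), a marker of stem cells in several epithelia and named by the study, held 2316, 2271 and 2136 bases in WT, 4517, 5039 and 4708 in KO1 and 4855, 4423 and 5001 in KO2. The KO libraries held about double the WT values (ratio of means 2.12 in both clones), and the groups were far apart. In limma the difference was 1.02 ± 0.09 in both clones (adjusted p = 9.26e-09 and 1.16e-08). LGR4 and LGR6 were not called, with differences of 0.00571 and 0.07 in KO1 and -0.0247 and 0.13 in KO2.

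Most of the LGR5 change lay in regions that not every library held. Of the 2516 bases by which the KO mean exceeded the WT mean, 38.8 lay in the 4 regions that all 15 libraries share and 1633 in the 5 regions gained in KO. No other of the 49 genes gained as many regions. One lay 7.72 kb before the start, at chr12:71431725-71432430 in the overlapping gene TSPAN8, and the other 4 in introns 8.44, 9.09, 26.2 and 79.9 kb from the start. Its promoter held a peak in every library, but the bases covered there differed. Within 1 kb of the start, peaks covered 714, 701 and 707 bases in WT. The values were 1045, 958 and 1056 in KO1 and 1067, 1005 and 1062 in KO2, and this measure was not tested.

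Neither co-receptor was called in both clones. LRP5 was higher in KO2 by 0.31 ± 0.10 (adjusted p = 0.0332), beside 0.18 ± 0.10 (adjusted p = 0.234) in KO1. LRP6 differed by -0.24 ± 0.10 (adjusted p = 0.085) and -0.21 ± 0.10 (adjusted p = 0.14). It held the only lost region of the set that came back: an intronic region 128 kb from its start had a peak in all 3 WT libraries, in no KO library and in all 6 rescue libraries.

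Both ROR receptors are long genes with many regions. ROR2 (chr9:91563091-91950228, minus strand), a receptor for WNT5A, held 8949, 6722 and 7583 bases in WT, 11134, 10799 and 10424 in KO1 and 12070, 10085 and 12074 in KO2. All KO libraries exceeded all WT libraries, by 0.48 ± 0.10 (adjusted p = 0.00114) and 0.55 ± 0.10 (adjusted p = 0.000299). Of its 64 regions 4 were gained, all intronic, and 2 of these, the one printed above among them, were absent again from all 6 rescue libraries. ROR1, with 109 regions, was not called, at -0.0348 and 0.0461.

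Of the secreted antagonists, 2 of 7 were higher in both KO clones and none lower. DKK2 (chr4:106921802-107283806, minus strand), which binds LRP co-receptors, held 1708, 1912 and 1837 bases in WT, 3099, 3463 and 3823 in KO1 and 3986, 3825 and 4125 in KO2. No KO library came near the WT range. The differences were 0.86 ± 0.10 (adjusted p = 8.54e-07) and 1.05 ± 0.10 (adjusted p = 4.75e-08). DKK2 gained 3 intronic regions, 225, 249 and 298 kb from its start. The first of these, printed above, had a median percentile of fold enrichment of 90.1 within its libraries, the highest of the 56 gained or lost regions.

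SFRP1, which binds Wnt proteins directly, held 1035, 1262 and 1077 bases in WT, 1743, 1735 and 1680 in KO1 and 1791, 1210 and 1781 in KO2. KO1 lay wholly above WT, while KO2 replicate 2 fell inside the WT range. The differences were 0.54 ± 0.14 (adjusted p = 0.00592) and 0.42 ± 0.14 (adjusted p = 0.0309). The SFRP1 call in both clones was lost in 9 of 27 alternatives, among them leaving out WT replicate 1, WT replicate 3, KO2 replicate 1 or KO2 replicate 3. DKK3 was called in KO2 only, at 0.28 ± 0.10 (adjusted p = 0.0375), beside 0.22 ± 0.10 (adjusted p = 0.106) in KO1.

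SFRP2, another antagonist that binds Wnt proteins, was called in neither KO clone, at 0.55 ± 0.20 (adjusted p = 0.0526) and 0.25 ± 0.20 (adjusted p = 0.434). Its promoter held a peak in 3 of 3 KO2 libraries, in 0 of 3 of WT and KO1, in 1 of 3 of Rescue1 and in 0 of 3 of Rescue2. A gain of this kind in KO2 was seen at 1.03% of all promoters. SFRP2 held 636, 794 and 807 bases in WT, 1249, 1082 and 1221 in KO1, 1006, 722 and 1059 in KO2, 296, 187 and 286 in Rescue1 and 697, 453 and 193 in Rescue2. Rescue1 lay below every WT library, by -1.06 ± 0.20 (adjusted p = 0.00073), and Rescue2 below WT by -0.62 ± 0.20 (adjusted p = 0.0286), with 1 of its libraries inside the WT range.

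Among the feedback inhibitors, RNF43, which marks Frizzled for removal, held 3947, 3284 and 3145 bases in WT, 1803, 1800 and 2064 in KO1 and 2402, 1956 and 2048 in KO2. Every KO library lay below WT, by -0.80 ± 0.12 (adjusted p = 3.32e-05) and -0.65 ± 0.12 (adjusted p = 0.000477). RNF43 lost 3 regions, more than any other gene than WNT7A. However, 27.2% of its bases lay outside the bodies of other annotated genes, and with those bodies left out the RNF43 call was lost. Another annotated gene overlapped every intronic and exonic region of RNF43. Leaving it out thus also removed RNF43's own regions, among them the lost intronic ones 14.7 and 17.4 kb from its start. The lost call therefore does not place the change in another gene. ZNRF3, its homologue, was called in KO2 only, at -0.32 ± 0.10 (adjusted p = 0.0277), beside -0.13 ± 0.10 (adjusted p = 0.395) in KO1, and AXIN2, a common readout of beta-catenin activity, was not called, at 0.11 ± 0.11 (adjusted p = 0.541) and 0.01 ± 0.11 (adjusted p = 0.949). In the AXIN2 window 2.54% of the bases under peaks lay outside other annotated genes.

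The R-spondins held the largest difference of the set. RSPO2 (chr8:107899316-108083642, minus strand) held 307, 307 and 290 bases in WT, 1927, 1692 and 2271 in KO1 and 1790, 2053 and 2440 in KO2, a ratio of means of 6.52 and 6.95 to WT. WT and KO libraries were far apart. The differences were 2.10 ± 0.15 (adjusted p = 3.66e-10) and 2.18 ± 0.15 (adjusted p = 2.52e-10). Its promoter held a peak in no WT library and in 3 of 3 libraries of each KO clone, a gain seen at 0.909% of all promoters in KO1, and an intronic region 12.4 kb from the start was gained as well. Another gained region lay 49.7 kb in.

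RSPO3 held 2278, 2307 and 2061 bases in WT, 3215, 3626 and 3721 in KO1 and 3157, 3227 and 3185 in KO2. The KO libraries were all higher, by 0.62 ± 0.11 (adjusted p = 0.000121) and 0.49 ± 0.11 (adjusted p = 0.00163). RSPO1 was not called, at -0.18 ± 0.20 (adjusted p = 0.578) and -0.39 ± 0.20 (adjusted p = 0.172).

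**Figure D2:**
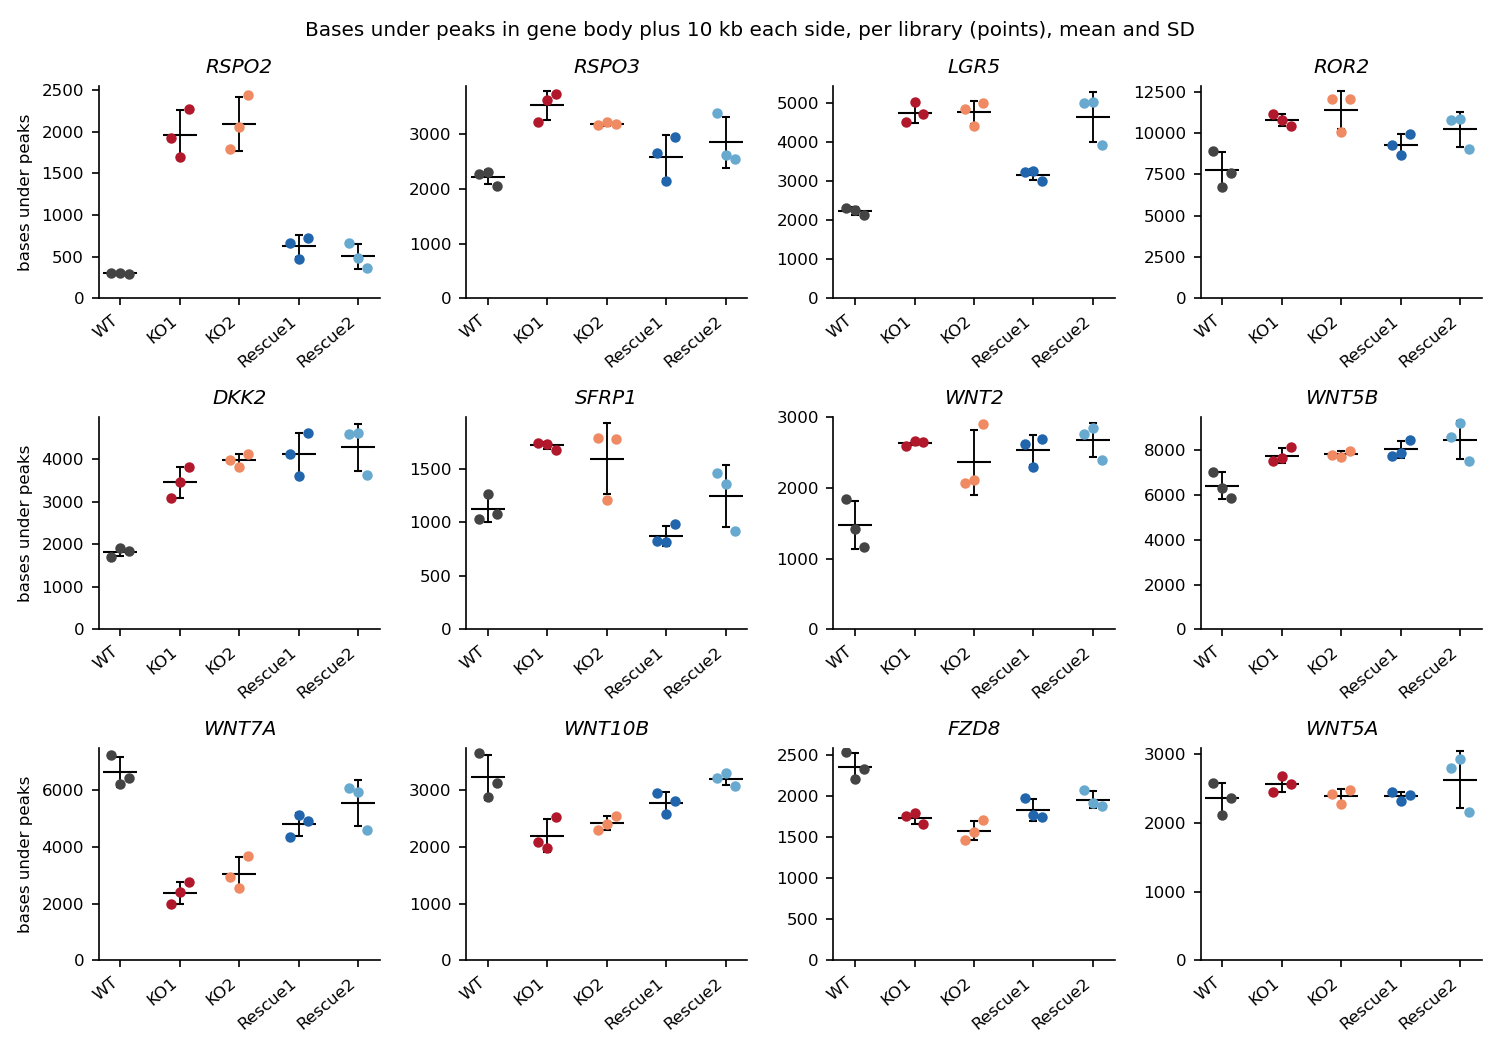
Bases under peaks in gene body plus 10 kb each side (y axis, from 0) in each of the 15 libraries (points) for 12 genes, with the mean and SD of the 3 libraries of a group. RSPO2 is low in WT, high in KO1 and KO2 and low again in both rescue clones, WNT7A shows the opposite, DKK2 and WNT2 remain high in rescue, and WNT5A differs little between groups.

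The 2 KO clones were compared with each other directly. By limma 0 of the 49 genes differed between KO2 and KO1, beside 2.99% of all genes. At an unadjusted p under 0.05 the count was 8 (16.3%, beside 12.4%), and 9 genes (18.4%, beside 18.2%) had libraries that did not overlap between the clones. An exact permutation test of the 6 KO against the 3 WT libraries gave its smallest possible p of 0.0238 for 19 of the 49 genes (38.8%, beside 24.2% of all genes), those whose libraries did not overlap WT in either clone, and no gene in the genome passed adjustment there, the smallest adjusted p being 0.0984. For KO1 alone, 26 genes did not overlap WT (53.1%, beside 39.3%).

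Rescue was judged against KO2. Rescue1 differed from KO2 in 8 of the 49 genes (16.3%, beside 14.6%), 4 of them higher (beside 8.59% of all genes) and 4 lower (beside 6.01%). Rescue2 differed in 10 (20.4%, beside 21.1%), 8 of them higher (16.3%, beside 17.9%) and 2 lower (4.08%, beside 3.19%). Under the scaling to one total the share of higher calls over all genes was 72.5% in place of 58.8% for Rescue1 and 62.4% in place of 84.9% for Rescue2. Single libraries moved these counts. Without Rescue2 replicate 3, 23 of the 49 genes differed between Rescue2 and KO2 (beside 37% of all genes), and without Rescue2 replicate 2, 8 did (beside 11.6%). The background was also lower without Rescue2 replicate 1 (12.8%), KO2 replicate 1 (14%) or KO2 replicate 2 (12.3%). For Rescue1, higher calls over all genes fell from 8.59% to 4.87% without KO2 replicate 2 and to 4.84% without Rescue1 replicate 3, below the lower calls in both cases. Over all genes the median of Rescue2 lay 0.13 above KO2 and 0.13 above WT on the log2 scale, and Rescue2 values are to be read against that shift. Of the 15 genes changed in both KO clones, RSPO2 and WNT7A moved back in both rescue clones (4.08% of the 49, beside 5.09% of all genes). By libraries that did not overlap, 5 genes reversed (10.2%, beside 7.81%), FZD8, WNT3A and WNT10B in addition. Against the mean of both KO clones in place of KO2, limma also gave 5, with SFRP1, WNT10B and WNT1 added to RSPO2 and WNT7A. The share of all genes under that rule is not given here, so this count has no background beside it.

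RSPO2 fell to 671, 477 and 727 bases in Rescue1 and 665, 480 and 368 in Rescue2, below every KO library and above every WT library. Against KO2 it differed by -1.48 ± 0.15 (adjusted p = 2.74e-07) and -1.72 ± 0.15 (adjusted p = 4.48e-08). Against WT it remained higher, by 0.71 ± 0.15 (adjusted p = 0.0019) and 0.47 ± 0.15 (adjusted p = 0.0258). The promoter peak was still called in 3 of 3 Rescue1 libraries, where it covered 197, 157 and 222 bases beside 760, 964 and 959 in KO2, and in 1 of 3 Rescue2 libraries.

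WNT7A rose to 4326, 5118 and 4897 bases in Rescue1 and to 6079, 5909 and 4595 in Rescue2. Both rescue clones lay between KO and WT, with no overlap. Against KO2 the differences were 0.63 ± 0.13 (adjusted p = 0.00117) and 0.82 ± 0.13 (adjusted p = 6.36e-05). Against WT, Rescue1 was still lower by -0.45 ± 0.13 (adjusted p = 0.0143), and Rescue2 was not called, at -0.26 ± 0.13 (adjusted p = 0.14). Of the 5 lost intronic regions of WNT7A, the one 54.9 kb from the start had a peak again in 2 of 3 Rescue1 and 3 of 3 Rescue2 libraries, and the others in at most 2 of the 6. In exact permutation tests of 6 rescue against 6 KO libraries, RSPO2 and WNT7A both gave the smallest possible p of 0.00216 (adjusted p = 0.0166 over all genes). That p follows from the lack of overlap already described and adds no further support. The test also pools the clones on each side.

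**Figure D3:**
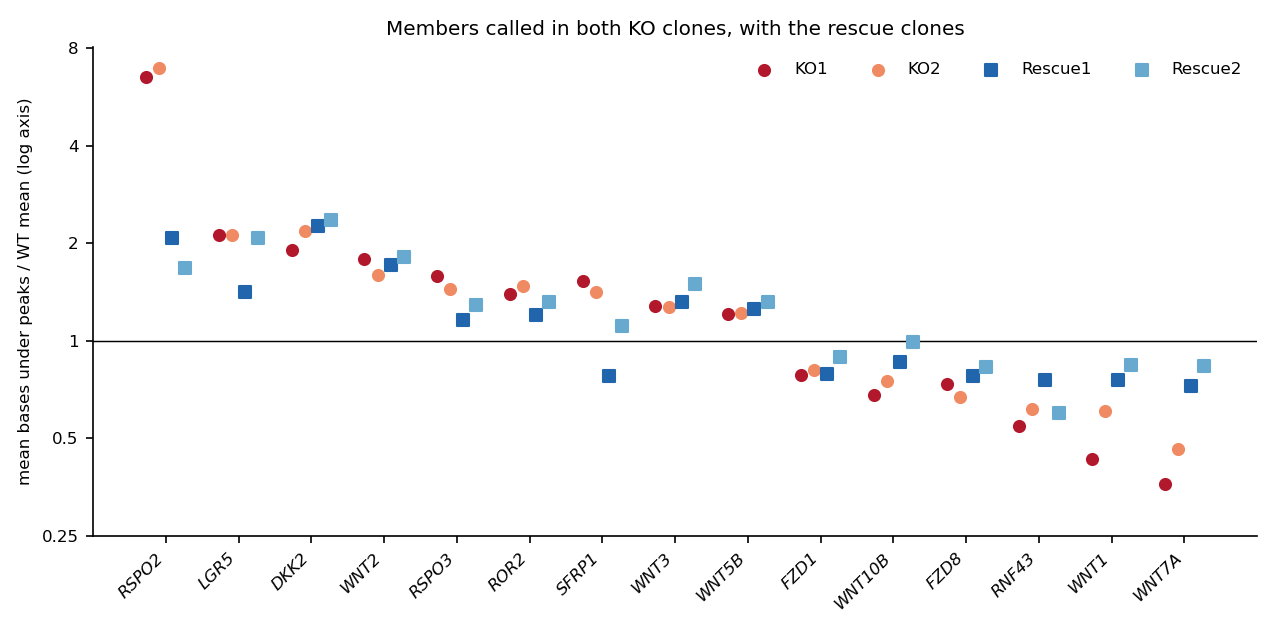
Mean bases under peaks of each KO and rescue clone divided by the WT mean (log axis, means of 3 libraries) for the 15 genes called in both KO clones; the line marks the WT mean. RSPO2 drops from 6.52 and 6.95 in the KO clones to 2.07 and 1.67 in the rescue clones, DKK2 stays between 1.90 and 2.35 in all 4, and LGR5 is at 1.42 in Rescue1 and 2.07 in Rescue2.

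LGR5 divided the rescue clones. Rescue1 held 3245, 3269 and 3002 bases and Rescue2 4993, 5031 and 3917, against 4855, 4423 and 5001 in KO2. Rescue1 thus lay below every KO library, by -0.56 ± 0.09 (adjusted p = 0.000118), and above WT, by 0.47 ± 0.09 (adjusted p = 0.000693), while Rescue2 differed from KO2 by -0.04 ± 0.09 (adjusted p = 0.778). Of the 49 genes LGR5 alone differed between the rescue clones by limma (2.04%, beside 3.42%). The 4 gained intronic regions were absent from every Rescue1 library and were found in 3, 1, 3 and 3 of the 3 Rescue2 libraries. The gained region before the start was kept in all 6 rescue libraries.

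**Figure D4:**
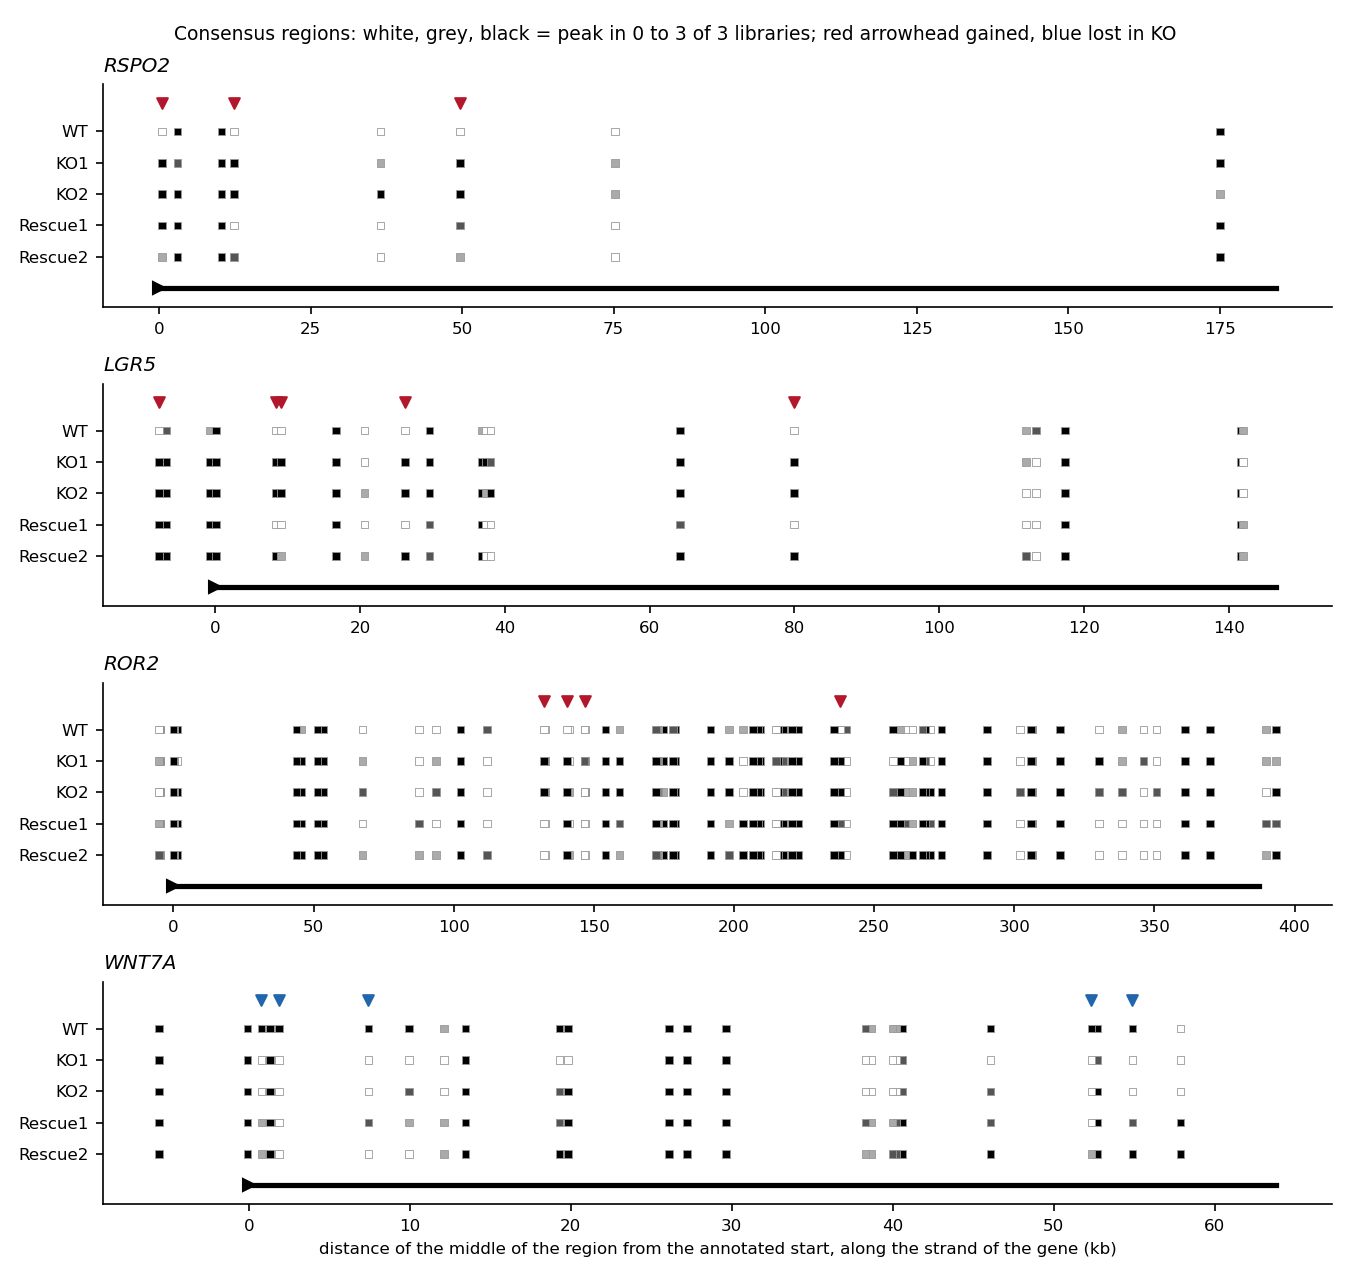
Consensus regions of RSPO2, LGR5, ROR2 and WNT7A by the distance of their middle from the annotated start along the gene (kb); square shade gives the number of libraries of a group with a peak (white 0, black 3), arrowheads mark regions gained (red) or lost (blue) in both KO clones, and the bar is the gene body. The 4 intronic regions gained at LGR5 are white in Rescue1.

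The remaining higher genes moved back in at most 1 rescue clone by limma against KO2, on bases not scaled to one total. SFRP1 fell in Rescue1 to 826, 819 and 984 bases, below every WT library, a difference of -0.72 ± 0.14 from KO2 (adjusted p = 0.00078), and Rescue2 held 1462, 1354 and 922, a difference of -0.31 ± 0.14 (adjusted p = 0.11). Neither ROR2, at -0.29 (adjusted p = 0.0606) and -0.16 (adjusted p = 0.281), nor RSPO3, at -0.30 (adjusted p = 0.0654) and -0.16 (adjusted p = 0.278), was called. Under the scaling to one total, however, ROR2, RSPO3 and SFRP1 were each called lower than KO2 in both rescue clones. The share of all genes reversed under that scaling is not given here. DKK2 held 4129, 3617 and 4610 bases in Rescue1 and 4588, 4612 and 3634 in Rescue2, none below the lowest KO library. WNT2 held 2623, 2295 and 2699 in Rescue1 and 2767, 2853 and 2400 in Rescue2, also in the KO range and above WT by 0.72 ± 0.13 (adjusted p = 0.000248) and 0.79 ± 0.13 (adjusted p = 7.12e-05).

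Among the lower genes other than WNT7A, WNT10B and FZD8 rose in Rescue2 against KO2, by 0.38 ± 0.10 (adjusted p = 0.00722) and 0.28 ± 0.09 (adjusted p = 0.0244), and by 0.18 ± 0.10 (adjusted p = 0.224) and 0.19 ± 0.09 (adjusted p = 0.155) in Rescue1, where neither was called. WNT1, at 0.27 ± 0.16 (adjusted p = 0.275) and 0.41 ± 0.16 (adjusted p = 0.0656), was called in neither. RNF43 held 2694, 2655 and 2506 bases in Rescue1 and 2269, 2408 and 1514 in Rescue2. Every rescue library was below WT, by -0.37 ± 0.12 (adjusted p = 0.0412) and -0.71 ± 0.12 (adjusted p = 0.000198).

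Both rescue clones differed from WT in the same direction in 13 of the 49 genes (26.5%, beside 13.3% of all genes), 10 higher (20.4%, beside 11.7%) and 3 lower (6.12%, beside 1.64%). Of the 9 genes higher in both KO clones, 6 were among them (RSPO2, LGR5, DKK2, WNT2, WNT3 and WNT5B), and of the 6 lower ones 2 (FZD8 and RNF43). The count changed with the WT libraries, being 5 without WT replicate 3 and 7 without WT replicate 2. The share of all genes in those fits is not given here, so the drop is not read as particular to the 49 genes. DKK2, WNT2, LGR5 and FZD9 were called in both of these fits.

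Promoters were scored only by the presence of a peak, which does not show a change in its length such as that at WNT7A. A promoter peak was present in all 15 libraries for 40 of the 49 genes (81.6%, beside 65.4% of all promoters), in none for 4 (WNT8A, WNT8B, WNT16 and SFRP4, beside 22.5%), and in some for 5. Of these 5, RSPO2, FZD9 and SFRP2 changed between 0 of 3 and 3 of 3 libraries of WT and a KO clone. In KO1 this was 1 gain (2.04% of the 49, beside 0.909%) and 1 loss (2.04%, beside 1.37%), and in KO2 it was 2 gains (4.08%, beside 1.03%). WNT3A held a promoter peak in 1 KO1 library and WNT5A in 1 Rescue2 library only. When any annotated transcript start was allowed, RSPO2 no longer switched, and with 150000 peaks per library SFRP2 did not. With the 1 kb before the start alone, WNT6 and RSPO1 switched and SFRP2 did not.

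The windows of the 49 genes held 776 consensus regions, 302 of them (38.9%, beside 35.6% of all regions) with a peak in all 15 libraries. Regions gained in KO, with a peak in all 6 KO libraries and no WT library, numbered 30 (3.87%, beside 4.79%), and regions lost 26 (3.35%, beside 2.48%). These 56 lay in 26 of the 49 genes, 42 in introns, 4 over exons, 4 upstream and 6 downstream, and 2 lay within 1 kb of the start. The 9 higher genes held 22 of the gained regions and 2 of the lost ones, and the 6 lower genes 12 lost and 0 gained, a split the calls themselves favour. In rescue, 2 gained regions (0.258%, beside 0.818%) and 1 lost region (0.129%, beside 0.314%) returned to the WT state in all 6 libraries, the gained ones in ROR2 and the lost one in LRP6.

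Other genes of the pathway were counted from lists of transducers, secretion factors and further extracellular modulators, planar polarity genes and targets. Of 63 tested, 4 were higher in both KO clones (6.35%, beside 9.83%) and 4 lower (6.35%, beside 6.64%). TBX3, a beta-catenin target, rose by 1.18 ± 0.10 (adjusted p = 4.87e-09) in KO1 and 1.32 ± 0.10 (adjusted p = 9.33e-10) in KO2, and NKD1, an inhibitor of Dishevelled induced by Wnt, by 1.15 ± 0.12 (adjusted p = 1.2e-07) and 1.11 ± 0.12 (adjusted p = 2.58e-07). These were the only 2 of 12 target genes tested that were called in both clones. The median log2 difference over the 12 was 0.00213 in KO1 and 0.0306 in KO2. APCDD1, a membrane inhibitor of Wnt, rose by 1.46 and 1.24, and KREMEN1, a receptor for DKK proteins, by 0.64 and 0.50. NKD2, a relative of NKD1, fell by 1.59 ± 0.27 (adjusted p = 9.91e-05) and 1.02 ± 0.27 (adjusted p = 0.00754). It held 514 ± 50 bases in WT, 43 ± 75 in KO1 and 163 ± 121 in KO2, so its KO values were also low. SOST, an antagonist that binds LRP co-receptors, fell by 0.70 and 0.52. GSK3B and CELSR3 were the other lower genes. SOST, NKD2 and CELSR3 were called higher again in both rescue clones, 3 of the 63 genes, where 5.09% of all genes reversed.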

How the data were processed

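ATAC-seq libraries of RPTEC cells were deposited as 15 peak lists, 3 per group, with peaks called in each library alone. The submitters' processing notes name BWA 0.7.17, MACS2 2.2.7.1 and DiffBind 2.14.0, and the files are on hg38. As deposited by the authors, each peak has a position, a MACS2 score, a fold enrichment (a ratio over the local background) and −log10 p and −log10 q values.

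Positions gave the bases under peaks, in the gene body and 10 kb on each side, and promoter peaks within 1 kb of the start, for 20033 GENCODE v44 protein-coding genes. Genes with a mean of at least 200 bases (18456) were tested with limma 3.58.1 in R 4.3.3 on log2(bases + 200), all 15 libraries in 1 fit, with Benjamini-Hochberg adjustment. Exact permutation tests were two-sided. Consensus regions were merged from peaks that at least 2 libraries share. Fold enrichment served only as a rank within each library, and the scores were not used. Other steps used Python 3.11.15, numpy 2.4.6, pandas 2.3.3 and matplotlib 3.10.9, and the tests were tried on simulated data. A reversed gene is one called in both KO clones and called the other way in both rescue clones against KO2. Named in full were at most 12 genes called in both clones by size of change, every reversed gene, every promoter switch, WNT2, WNT5A and LGR5, genes called in 1 clone only, and at most 6 other pathway genes. The genes and lists were chosen with earlier results of these data known. Alternatives were other pseudocounts, filters, flanks, peak sets, scalings, thresholds and call rules, a replicate block and leaving out each library. Some items are not reported here.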

Additional observations from a re-analysis of the deposited data

Results flagged for a closer look

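LGR5 was the gene of the 49 for which the rescue clones differed in a direct test. It carried more bases under peaks in Rescue2 than in Rescue1, by 0.52 on the log2 scale in limma, with 3 of 3 Rescue2 libraries above every Rescue1 library. The call held in 25 of 25 alternatives, with differences from 0.38 to 0.86 and adjusted p from 2.61e-05 to 0.0167. Some of these left out a WT, KO1 or KO2 library, which cannot change the difference itself, and it stayed at 0.52 there. Over all genes 3.42% differed between the rescue clones.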

How the results depend on the processing

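Scaling to one total gave 32 genes in KO1, 31 in KO2, 25 in both clones, 8 reversed, 4 between the KO clones and 22 between rescue and WT, in place of 17, 19, 15, 2, 0 and 13. The 8 reversed genes were RSPO2, WNT7A, WNT3A, WNT10B, SFRP1, ROR1, ROR2 and RSPO3. Over all genes the share called rose likewise, to 45.4% in KO1, 50.3% in KO2 and 35.4% in both clones. The share of all genes reversed, differing between the KO clones or differing between rescue and WT is not given here under that scaling. Those counts are thus not read as particular to the genes described here. Calls by non-overlap gave 26 in KO1, 5 reversed and 9 between the KO clones. An adjusted p under 0.01 gave 11 in KO2 and 6 between rescue and WT, and rescue against the mean of both KO clones gave 5 reversed. Between the KO clones, 150000 peaks per library gave 2, stricter peaks 1 and 50 kb flanks 2, and 50 kb flanks gave 8 between rescue and WT. For these counts the share of all genes is not given either. The same holds for genes reversed against the KO mean and for rescue against WT at the lower threshold. It also holds for genes reversed, between the KO clones or between rescue and WT, with a library left out or the replicate block. With 50 kb flanks the WNT3 difference in KO1 turned to -0.00421. For regions, the majority rule gave 69 gained, 72 lost and 24 reversed in place of 30, 26 and 3, and 6 reversed when 50% of a region had to be covered and 5 with 150000 peaks. The share of all consensus regions under these rules, or with a library left out, is not given here. Such region counts thus have no background beside them. With 150000 peaks per library the share of higher calls over all genes was 37.9% in KO2, 45.9% in both clones and 69.4% for Rescue1 against KO2. Leaving out 1 library gave 15 to 22 genes in KO1, 13 to 21 in KO2, 12 to 18 in both, 2 to 3 reversed, 0 to 1 between the KO clones (WNT1 without KO1 replicate 3) and 5 to 13 between rescue and WT. Reversed genes were 3 without KO2 replicate 2 (SFRP1 added) or Rescue2 replicate 3 (WNT3A added). Gained regions ranged from 30 to 39, lost from 26 to 36 and reversed from 3 to 5, the latter without KO2 replicate 1 or KO2 replicate 2. The replicate block gave 17, 18, 15, 2, 0 and 12. Same-numbered libraries did not deviate together (r from -0.163 to 0.0441 over 30 pairs), so the numbers were not taken to pair them. Of 2392 alternative values for single genes, 2245 kept direction and call, 78 lost a call, 68 gained one and 1 changed sign; the causes were not tested. Peak lists without read counts limit what a missing peak can show, and each KO and rescue genotype is 1 clone.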
